A study of Homo sapiens with 20 samples.

Results

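The comparison covers 6 of the 20 libraries of the series, all PAR-CLIP of the RNA-binding protein IGF2BP3 in HCT116 cells, a human colorectal carcinoma line that here carries Tet-OsTIR1. The libraries were chosen by their names: 3 from cells given DMSO for 4 h and 3 from cells given tunicamycin for 1 h, each with its list of crosslinked clusters. All 6 cultures received 4-thiouridine at 100 µM for 15 h, and tunicamycin was used at 5 µg/mL. The DMSO cells therefore had 4 h of vehicle, while the treated cells had 1 h of drug. The protocol text states 4 h for tunicamycin, whereas the sample labels give 1 h, and the labels were followed. The labels call replicates 1 to 3 separate samples without saying that they came from separate cultures, so p-values measure the spread between these samples, which may be technical.

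PAR-CLIP crosslinks a protein to RNA that has taken up 4-thiouridine, digests the unprotected RNA and sequences the rest, and crosslinked sites appear as T-to-C changes. IGF2BP3 is an oncofetal member of a family of mRNA-binding proteins with RRM and KH domains that bind CA-rich and CAU-containing sites, often in 3′ untranslated regions, and are known for stabilising their targets. Tunicamycin blocks N-linked glycosylation, so that unfolded proteins build up in the endoplasmic reticulum (ER) and the sensors IRE1, PERK and ATF6 start the unfolded protein response. Immediate-early genes such as EGR1 respond within minutes to growth factors and stress, and their mRNAs are short-lived. Reads recovered from an mRNA depend both on how much of it the cell holds and on how much of it is bound, and PAR-CLIP alone cannot tell these apart.

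Total gene counts ran from 374238 to 1287291 in DMSO and from 227961 to 1069328 after tunicamycin, and the lists held 14399 to 51825 and 7913 to 43662 clusters. The tunicamycin libraries were shallower at each replicate number, so a cluster missing from one of them carries little weight. Control IgG libraries gave 43 clusters in DMSO and 33 after tunicamycin. None of these lay in EGR1, DUSP5, ATF3, KLF10 or HMGA2. Clusters were found in 10 of 15 epithelial markers, EPCAM, CDH1 and KRT8 among them, which together took 82.9 to 226 reads per 1000000 cluster reads. KRT20, VIL1, CDX1, CLDN3 and GRHL2 had none, and KRT18 and CDX2 had one in DMSO replicate 3 alone. CDH1 had 0, 8 and 17 reads in DMSO and 0, 0 and 12 after tunicamycin. Tunicamycin replicate 1 held clusters of EPCAM and KRT8 only, with 6 reads each. The 9 fibroblast, 9 leukocyte and 5 endothelial markers had no cluster in any of the 6 libraries.

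The count table identifies genes by Ensembl stems that could not be paired with symbols here, so the named genes below rest on the reads of clusters placed inside RefSeq genes by position. Clusters were joined into regions, and reads were summed over the regions with a cluster in all 6 libraries. Of 58453 regions in at least 1 library, 3777 met this condition and 3153 of them lay in 1 named gene. This left 1773 genes of the 7604 with any cluster, and only well-covered mRNAs are among them. The shallower tunicamycin libraries set most of this filter, so genes whose clusters are missing there are left out. Values are cluster reads per 1000000 reads of these genes (CPM), scaled with TMM factors.

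To show sequence from the clusters of the mRNAs on which the results turn, 30 bases of a region of each are printed. They are the middle of the longest stretch of the region that clusters of all 6 libraries cover, and were not placed by T-to-C changes. They are read from the deposited cluster sequences in 5′ to 3′ direction on the RNA's strand in GRCh38 (T for U), with CAT in capitals. 
EGR1 (chr5:138468351-138468380, plus strand): tgCATggattttggataaatCATttcagta
DUSP5 (chr10:110510484-110510513, plus strand): actCATggaCATttCATacctgtgcaatac
ATF3 (chr1:212620084-212620113, plus strand): tccgatgtttgtgtcacacaacactgatgt
HMGA2 (chr12:65964630-65964659, plus strand): ctgggtaggtgattctaatCATctgcagtt
DNAJB1 (chr19:14515204-14515233, minus strand): tgtgggtcacactctttaCATttctgtaag
HSPA5 (chr9:125236422-125236451, minus strand): ctgtttactgcttttCATtagcagttgctc
CAT, searched on the RNA strand alone, occurred 2 times in the EGR1 window and 3 times in that of DUSP5. It was in 62.7% of the 2381 windows of this kind, against 50.0% for ACA and 16.6% for GGC, motifs of the same length. TGTA (10.4%) and TTTT (22.3%) are a letter longer, so their shares are not comparable with that of CAT. Enrichment of these motifs was not tested. The ATF3 window held no CAT, which says only that these letters are not in this window.

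EGR1, a zinc-finger transcription factor of the immediate-early class, was the 1 gene that passed the test, 1 of 1773 (0.0564%), and it fell. It had 3321, 2555 and 4656 CPM in the DMSO replicates 1 to 3 and 944, 1030.4 and 1846 CPM after tunicamycin. Every tunicamycin library lay below every DMSO library, and replicate 3 was the highest in both groups. The means were 3511 ± 1063 and 1273 ± 498 CPM (SD, n = 3 each), a 2.62-fold fall (log2 fold change -1.39, SE 0.21, adjusted p = 0.00388, by edgeR's quasi-likelihood test, adjusted by the Benjamini-Hochberg method). Between replicates 1 and 2 alone, which form the library set S142, the log2 fold change was -1.55 (adjusted p = 0.00018). At an unadjusted p under 0.05 there were 130 genes (7.33%), and DESeq2 called 0. The EGR1 call was lost with DESeq2 (adjusted p = 0.13), with robust variance moderation (0.52), with clusters of at least 10 reads (0.070), with regions present in at least 3 libraries (0.088) and without replicate 2 of tunicamycin (0.24). Without DMSO replicate 3 the log2 fold change of EGR1 was -1.11 (adjusted p = 0.010), and over all alternatives the adjusted p ran from 1.7e-06 to 0.52. The number of genes called was 0 without tunicamycin replicate 2, 3 without DMSO replicate 1 or without DMSO replicate 2, and 4 without tunicamycin replicate 3.

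**Figure D1:**
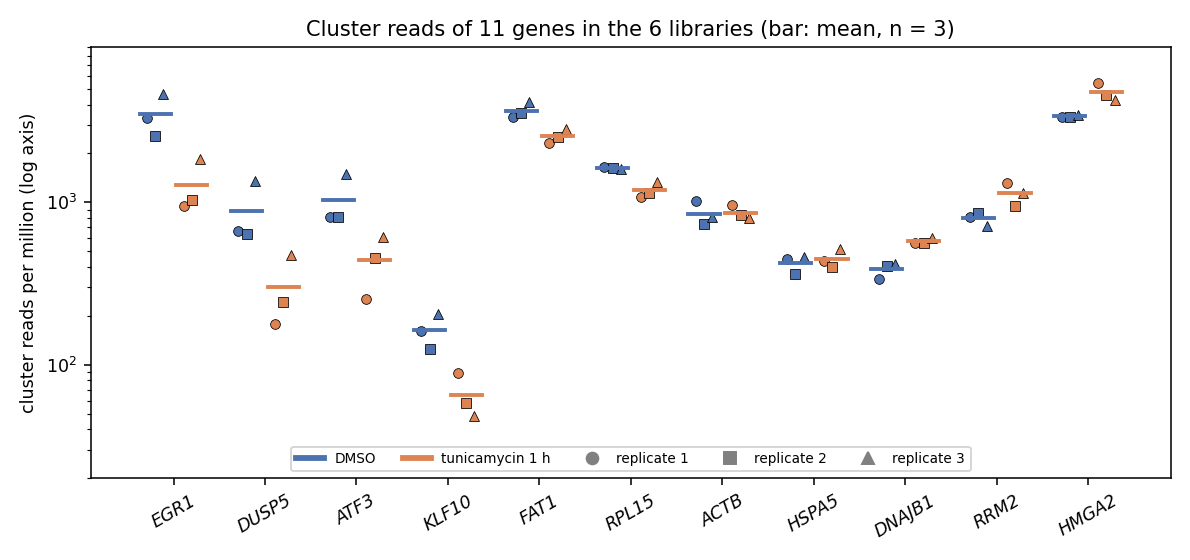
Cluster reads in CPM (log axis) of 11 genes in the 6 libraries, with the DMSO libraries in blue, tunicamycin 1 h in orange, a marker shape per replicate and a bar at the mean of 3. The EGR1 libraries sit at 944 to 1846 CPM after tunicamycin and at 2555 to 4656 CPM in DMSO, whereas the groups of ACTB and HSPA5 overlap.

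The lower EGR1 signal was spread over its mRNA. EGR1 lies on chromosome 5, 138465479 to 138469303, plus strand, and 4 regions in it had a cluster in all 6 libraries. The region starting 1274 bases from the gene start had 615, 422 and 668 CPM in DMSO and 63.9, 111 and 282 CPM after tunicamycin. The next, starting at 1779 bases, had 961, 703 and 1362 against 107, 475 and 548 CPM. These groups do not overlap (6.78% of all regions tested were lower without overlap), and replicate 1 of tunicamycin was the lowest in both regions. The region starting at 2641 bases, with the most reads, had 1158, 981 and 1721 against 511, 278 and 696 CPM, again without overlap, and holds the window printed above. The small region starting at 2388 bases had 98.1, 130.2 and 270.3 against 107, 30.3 and 93.4 CPM, and its groups overlap. By start, the log2 fold changes were -1.60 for the region at 1274 bases, -1.25 at 1779 bases, -1.21 at 2388 bases and -1.33 at 2641 bases. No region passed on its own in the fit without a replicate block, with adjusted p from 0.21 to 0.73.

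**Figure D2:**
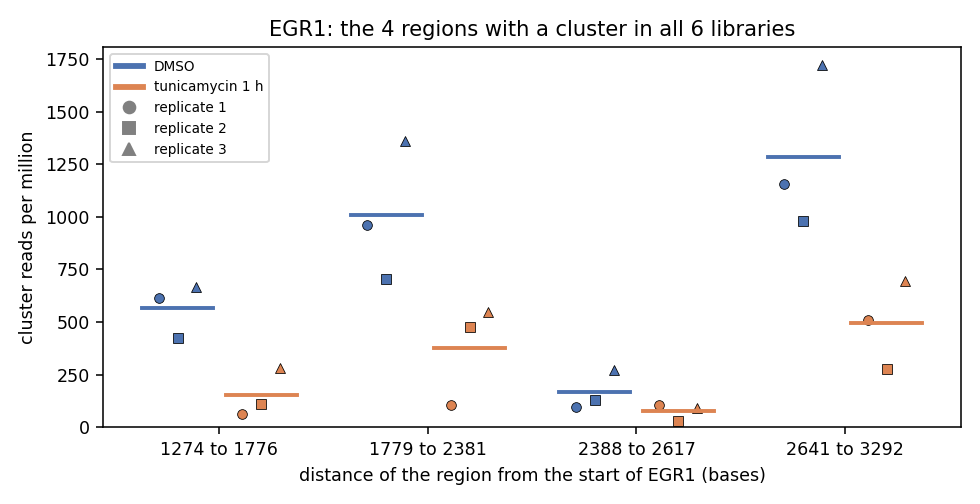
Cluster reads in CPM in the 4 EGR1 regions, placed by their distance in bases from the gene start, with DMSO in blue, tunicamycin 1 h in orange and a bar at the mean of 3 libraries. In 3 regions all tunicamycin libraries lie below all DMSO libraries, and in the region starting at 2388 bases the groups overlap.

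The 3 genes with the next lowest p-values, DUSP5, ATF3 and KLF10, encode regulators that are also known as rapidly induced. They were chosen after their values were seen. DUSP5, a nuclear phosphatase of ERK induced by ERK itself, had 667, 641 and 1347 CPM in DMSO and 179, 245 and 474 after tunicamycin (log2 fold change -1.40, SE 0.28, adjusted p = 0.0519). ATF3, a bZIP factor of the integrated stress response and of the immediate-early class, had 813, 813 and 1485 against 255, 454 and 611 CPM (log2 fold change -1.12, SE 0.23, adjusted p = 0.0541). In both genes the groups do not overlap (7.78% of all tested genes were lower without overlap), and DMSO replicate 3 is the highest library. Neither passed in the fit of the 6 libraries. Both library sets hold both groups, and with the set as a term in that fit DUSP5 (adjusted p = 4.57e-05), ATF3 (9.9e-04) and EGR1 were called, 3 genes in all. A fit that also held the 3 libraries of tunicamycin for 4 h called DUSP5, ATF3 and EGR1, 3 of 1723 genes (0.174%, all lower), with adjusted p of 0.010 for DUSP5 and 0.014 for ATF3, whereas in the fit of the 6 libraries without DMSO replicate 3 both had 0.44. The log2 fold change without that library was -0.95 for DUSP5 and -0.75 for ATF3, and without tunicamycin replicate 3 it was -2.05 (adjusted p = 0.0067) and -1.49 (0.026). With DESeq2 the adjusted p was 0.51 for DUSP5 and 0.58 for ATF3, and with robust variance moderation 0.60 and 0.54. Without tunicamycin replicate 2 it was 0.60 for both, and with regions in at least 3 libraries 0.45 for both. A mean count of at least 50 gave 0.031 for both, and S142 alone 0.018 for DUSP5 and 0.13 for ATF3. KLF10, a TGF-beta-inducible Krüppel-like factor, had 161, 126 and 204 CPM in DMSO and 89.3, 58.2 and 48.6 after tunicamycin (log2 fold change -1.50, SE 0.35, adjusted p = 0.16). It rests on few reads, 7 to 21 per tunicamycin library.

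Of the 46 immediate-early and growth-factor response genes listed, 41 had a cluster in some library and 17 could be tested. Among the 17, 1 was called (EGR1), 11 had a log2 fold change below 0, and the median was -0.17 against -0.004 over all 1773 genes, of which 897 lay below 0. The median was -0.088 without DMSO replicate 3 and -0.29 without tunicamycin replicate 3, and lay between these values when any other library was left out. The groups did not overlap in 5 of them, all lower, or 29.4%, where 7.78% of all tested genes were lower without overlap. BTG2, an antiproliferative p53 target, had 959, 952 and 968 CPM in DMSO and 714, 734 and 689 after tunicamycin (log2 fold change -0.44, SE 0.13, adjusted p = 0.24). PHLDA1, a growth-factor response gene with high coverage, had 4003, 3535 and 4331 against 3175, 3184 and 2977 CPM (log2 fold change -0.35, SE 0.12, adjusted p = 0.39). The highest log2 fold change of the list was that of MYC (0.40, adjusted p = 0.48), so the members did not all lie on one side. MYC, like JUNB and EGR3 below, was chosen after its values were seen.

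The other 24 listed genes with a cluster could not be tested, and their reads are given as they stand. All 24 had a cluster in DMSO replicate 3 and 14 in tunicamycin replicate 3, the deepest library of each group. The same share over all untested genes with a cluster is not given here, so these counts are no result about the list. NR4A1, an orphan nuclear receptor induced by mitogens, had 14, 53 and 447 reads in DMSO and 0, 12 and 41 after tunicamycin. FOS, the AP-1 subunit, had 0, 0 and 38 reads in DMSO and 0, 0 and 16 after tunicamycin. JUNB had 7, 9 and 48 reads in DMSO and EGR3 had 0, 9 and 52, and neither had a cluster after tunicamycin. Other members held their reads better: BTG1 had 0, 8 and 27 in DMSO and 0, 0 and 29 after tunicamycin. RHOB had 28, 43 and 99 against 0, 26 and 75. BTG1 and RHOB were also chosen after their values were seen. No cluster of JUN was listed in any of the 6 libraries. In NR4A1, FOS, JUNB and EGR3, DMSO replicate 3 held the most, as it did in all cluster reads (1090986 of them), and a missing cluster here is not a level of 0.

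**Figure D3:**
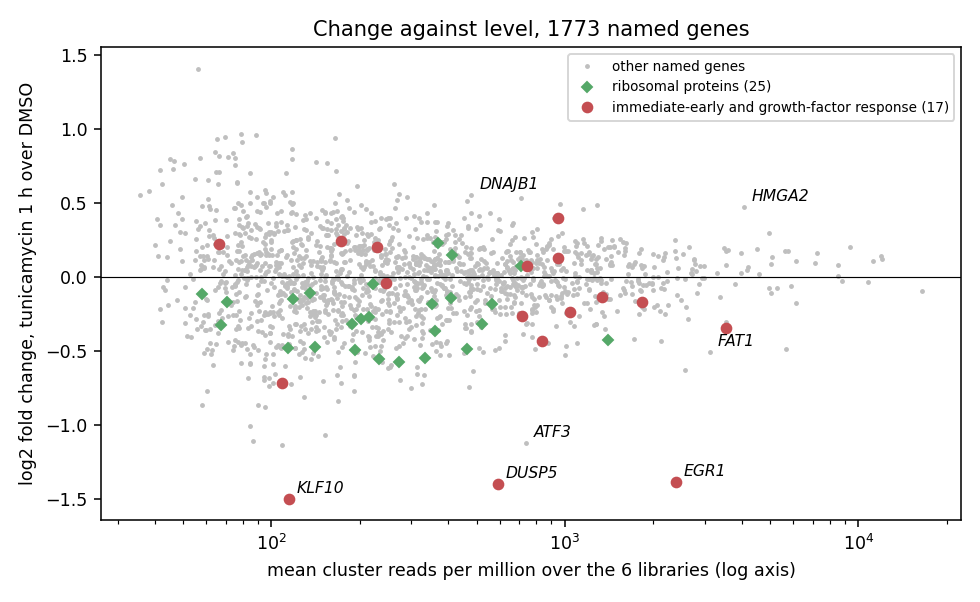
Log2 fold change of tunicamycin 1 h over DMSO against mean cluster reads in CPM (log axis) for 1773 genes, with the 17 immediate-early and growth-factor response genes in red and the 25 ribosomal protein genes in green. EGR1, DUSP5, ATF3 and KLF10 lie below -1.1, and most ribosomal protein genes lie a little below 0.

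None of the tested genes of the unfolded protein response passed the test at 1 h. HSPA5 encodes BiP, the main ER chaperone and a marker of the response. It had 445, 364 and 459 CPM in DMSO and 434, 402 and 516 after tunicamycin (log2 fold change 0.13, SE 0.17, adjusted p = 0.93). The groups overlap, and the sign turned to -0.02 in 1 of the fits that leave out a library. XBP1, the factor whose mRNA IRE1 splices, had 138, 198 and 231 against 179, 87.3 and 264 CPM (log2 fold change -0.06, SE 0.32, adjusted p = 0.98), and its sign also turned with the settings. Of 23 ER chaperones and disulfide isomerases 7 were tested, 0 were called (0 at an unadjusted p under 0.05) and the median log2 fold change was -0.008, with CANX (calnexin, -0.05) and TXNDC5 (-0.01) the best covered. Of 25 XBP1 and ER-associated degradation genes 9 were tested, 0 were called (0 unadjusted) and the median was -0.06, with SEC61A1 of the translocon at -0.18 and SSR1 at -0.05.

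The integrated stress response runs from PERK through ATF4 to CHOP. ATF4 had 1012, 777 and 655 CPM in DMSO and 701, 664 and 511 after tunicamycin (log2 fold change -0.39, SE 0.17, adjusted p = 0.60), with overlapping groups. Of 29 genes of this response 8 were tested, 0 were called at the threshold, 4 had an unadjusted p under 0.05 and 7 lay below 0, with a median of -0.27. ATF3, described above with the immediate-early genes, is among the 8 and had the lowest log2 fold change (-1.12). Of all 1773 tested genes 130 (7.33%) had an unadjusted p under 0.05 and 897 lay below 0. TRIB3, a pseudokinase induced by ATF4 and CHOP, had 445, 459 and 364 against 242, 408 and 268 CPM (log2 fold change -0.44, SE 0.21, adjusted p = 0.65). VEGFA, an angiogenic factor that ATF4 can induce, had 69.0, 139 and 136 against 76.5, 34.9 and 62.5 CPM (log2 fold change -1.11, SE 0.37, adjusted p = 0.38). VEGFA rests on few reads, 6, 6 and 38 over all its clusters in the tunicamycin libraries. TRIB3 and VEGFA were chosen after their values were seen. HERPUD1, an ER-associated degradation factor, had 0, 12 and 7 reads in DMSO and 0, 0 and 0 after tunicamycin. PPP1R15A, the regulatory subunit that reverses eIF2α phosphorylation, had 0, 0 and 17 reads in DMSO and 0, 0 and 6 after tunicamycin. DDIT3, which encodes CHOP, had no cluster in any of the 6 libraries.

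Most tested ribosomal protein mRNAs had a log2 fold change below 0, and none passed the test. Of 85 genes 76 had a cluster and 25 were tested, 0 passed (5 at an unadjusted p under 0.05), 22 lay below 0, and the median log2 fold change was -0.29, between -0.23 and -0.40 when a library was left out. The same counts over all 1773 tested genes were 130 (7.33%) at an unadjusted p under 0.05 and 897 below 0. Groups did not overlap in 7 of the 25 (28%, all lower), against 7.78% of all tested genes. RPL15 of the large subunit had 1649, 1637 and 1606 CPM in DMSO and 1084, 1147 and 1325 after tunicamycin (log2 fold change -0.43, SE 0.12, adjusted p = 0.24). RPS23 of the small subunit had 276, 357 and 362 against 179, 180.5 and 278 CPM (log2 fold change -0.58, SE 0.23, adjusted p = 0.50), and was chosen after its values were seen. Ribosomal protein genes have many near-identical processed copies, so their reads are uncertain where the authors' mapping could split them. Depth moves with the untested members: of 51, tunicamycin replicate 1 had a cluster in 3 and DMSO replicate 1 in 33. Its part in the median was not tested.

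No gene passed in the higher direction (0 of 1773, 0%), and those with the lowest p-values there are described. HMGA2, a chromatin protein and known IGF2BP target, had 3359, 3358 and 3458 CPM in DMSO and 5394, 4599 and 4254 after tunicamycin (log2 fold change 0.47, SE 0.12, adjusted p = 0.19). The DMSO libraries lay close together, and all tunicamycin libraries lay above them. DNAJB1, a heat-shock co-chaperone of the HSP40 family, had 337, 403 and 418 against 561, 559 and 604 CPM (log2 fold change 0.55, SE 0.16, adjusted p = 0.24). RRM2, a subunit of ribonucleotide reductase, had 813, 865 and 713 against 1313, 949 and 1140.3 CPM (log2 fold change 0.49, SE 0.14, adjusted p = 0.24). In all 3 genes the groups do not overlap. Among all tested genes 115 (6.49%) were higher without overlap and 138 (7.78%) lower.

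Of the 25 HSF1 heat shock chaperones 15 were tested, 0 passed (1 unadjusted), 11 lay above 0 and the median was 0.14. Over all 1773 tested genes 876 lay above 0, and the unadjusted counts here and below stand beside 7.33% of all tested genes. The median was 0.025 without tunicamycin replicate 2, 0.062 without DMSO replicate 2 and 0.24 without DMSO replicate 3. Of 25 oncogenic IGF2BP targets 13 were tested, 0 passed (3 unadjusted) and the median was 0.08, with HMGA1 at 0.12 and CCND1, which encodes cyclin D1, at 0.08. Among 24 p53 targets 11 were tested and 0 passed (2 unadjusted), and CDKN1A, which encodes p21, had -0.04 while MDM2 had -0.08. The stress granule list gave 0 of 17 (1 unadjusted) with a median of -0.09, where CAPRIN1 had -0.22 and PABPC1 -0.09. CDKN1A, HMGA1 and PABPC1 also had clusters in an IgG list. ACTB, which encodes beta-actin, had 1012, 739 and 809 against 956, 838 and 796 CPM (log2 fold change 0.02, SE 0.14).

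Further genes with low p-values did not pass, and in all of them but TRIB1 the groups do not overlap. They were chosen after their values were seen, and a choice by low p-values favours groups that lie apart. Among all tested genes 7.78% were lower and 6.49% higher without overlap. FAT1, a giant protocadherin, had 12 regions with a cluster in all 6 libraries, 3344, 3540.3 and 4125 CPM in DMSO and 2334, 2532 and 2817 after tunicamycin (log2 fold change -0.51, SE 0.12, adjusted p = 0.16). DAZAP2, a small proline-rich adaptor, had 1334, 1098 and 1172 against 714, 856 and 851 CPM (log2 fold change -0.53, SE 0.13, adjusted p = 0.16). AREG, which encodes the EGF receptor ligand amphiregulin, had 920.2, 826 and 1026 against 689, 623 and 673 CPM, and ERRFI1, a feedback inhibitor of that receptor, had 6511, 5110.3 and 8225 against 4119, 4873 and 5084 CPM. Both lay lower after tunicamycin, with adjusted p of 0.24 and 0.29. EIF3L, a subunit of the initiation factor eIF3, had 468, 375 and 373 against 268, 233 and 234 CPM. CCNI, which encodes cyclin I, had 606, 544 and 667 against 268, 384 and 442 CPM. SCD, a fatty acid desaturase, had 2086, 1891 and 2022 against 1237, 1374 and 1730.1 CPM. TRIB1, a pseudokinase, had 2615, 2352 and 4366 against 1977, 1688 and 2366 CPM, and the highest tunicamycin library lies above the lowest DMSO library. On the higher side KPNA2, which encodes an importin, had 1012, 998 and 902 CPM in DMSO and 1275, 1560.2 and 1166 after tunicamycin, EIF1AD had 521, 562 and 610.4 against 1007, 798 and 761 CPM and NCBP2 of the cap-binding complex had 345, 377 and 393 against 650.4, 541 and 481 CPM.

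**Figure D4:**
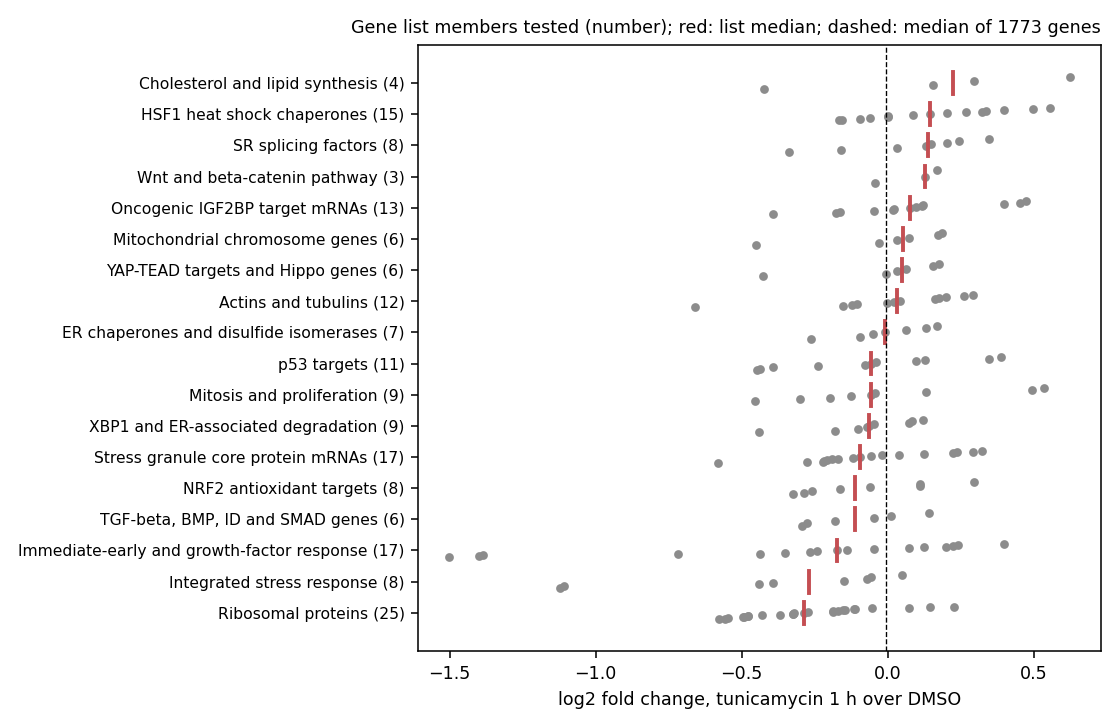
Log2 fold changes of tunicamycin 1 h over DMSO for the tested members of 18 gene lists, one grey point per gene, with the list median in red and the median of all 1773 genes as a dashed line at -0.004. The lowest medians are those of the ribosomal proteins (-0.29) and the integrated stress response (-0.27), and the red marks of the ER lists lie next to 0.

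The list of YAP-TEAD and Hippo genes had 6 tested and 0 called (0 unadjusted), and the best known transcriptional targets of the pathway lacked clusters in some libraries. AMOTL2, a junction protein and YAP target, had 8, 91 and 197 reads in DMSO and 0, 0 and 27 after tunicamycin. CCN1 and CCN2, matricellular proteins, had 0, 0 and 41 and 0, 0 and 78 reads in the DMSO replicates and no cluster after tunicamycin. Clusters in the mRNA of IGF2BP3 itself took 53.7, 138 and 161 reads per 1000000 cluster reads in the DMSO libraries and 0, 121 and 164 after tunicamycin. Those in IGF2BP2 took 0, 86.4 and 92.6 and 0, 74.6 and 78.0, where 0 means that no cluster was listed. IGF2BP1 could not be placed, since the reference gave no strand for it.

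The deposited gene counts gave the comparison over more genes, by identifier alone. Of 8343 identifiers tested in a fit with tunicamycin 4 h, 46 passed (0.551%), 12 higher (0.144%) and 34 lower (0.408%), while 806 (9.66%) had an unadjusted p under 0.05. DESeq2 called 6, and leaving out DMSO replicate 3, tunicamycin replicate 2 or tunicamycin replicate 1 gave 13, 17 and 23. ENSG00000118523_6 had 13.6, 22.2 and 71.1 CPM in DMSO and 4.58, 6.62 and 8.55 CPM after tunicamycin (log2 fold change -2.48, SE 0.45, adjusted p = 4.43e-04). DMSO replicate 3 was the highest, and without it the log2 fold change was -1.36 (adjusted p = 0.38). This identifier rests on few counts, 1, 3 and 9 in the tunicamycin libraries. ENSG00000142871_18 had 16.3, 15.9 and 58.3 against 9.17, 0 and 8.55 CPM (log2 fold change -2.44, SE 0.49, adjusted p = 0.00368). Here too DMSO replicate 3 was the highest, and the tunicamycin libraries held 2, 0 and 9 counts. A count of 0 in tunicamycin replicate 2 allows up to 3 counts. A further pair of identifiers passed with higher counts. ENSG00000124635_9 had 8.17, 8.47 and 5.59 against 22.9, 22.1 and 27.6 CPM (log2 fold change 1.82, SE 0.44, adjusted p = 0.0263). It too rests on few counts, 3, 8 and 7 in DMSO and 5, 10 and 29 after tunicamycin. ENSG00000196787_3 had 51.7, 47.6 and 46.3 against 105, 61.8 and 87.4 CPM (log2 fold change 0.79, SE 0.20, adjusted p = 0.0313). In these 2 identifiers the groups do not overlap, as in 7.55% of all identifiers for higher and 7.74% for lower. The calls of all 4 were lost with DESeq2 (adjusted p from 0.17 to 0.90). Robust variance moderation gave an adjusted p of 0.26 for ENSG00000118523_6 and 0.23 for ENSG00000142871_18. Within S142 alone ENSG00000118523_6 and ENSG00000196787_3 each had 0.51, and without a count filter ENSG00000196787_3 had 0.059. That of ENSG00000142871_18 was also lost without tunicamycin replicate 2 (0.10), and it fell under the count filter without DMSO replicate 2, DMSO replicate 3 or tunicamycin replicate 3. That of ENSG00000124635_9 was lost when any library other than DMSO replicate 1 was left out, and that of ENSG00000196787_3 when DMSO replicate 2 or 3 or tunicamycin replicate 1 or 3 was. The IgG libraries gave 4 counts of ENSG00000142871_18 after tunicamycin and 0 in DMSO, and at most 1 count of each of the others.

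Tested singly, 0 of 3777 regions passed (0%), with 220 (5.82%) at an unadjusted p under 0.05, and 3 passed without tunicamycin replicate 3. Groups did not overlap in 6.17% of regions for higher and in 6.78% for lower. Of 8600 regions present in all 3 DMSO libraries 43.9% were also present in all 3 tunicamycin libraries, and of 4398 present in all 3 tunicamycin libraries 85.9% were present in all 3 DMSO libraries. Regions in every DMSO library and no tunicamycin library numbered 193, and the reverse 1, beside deeper DMSO libraries. With regions in at least 3 libraries, 14 of 21187 passed, 2 higher and 12 lower. In that fit a library without a cluster counted as 0 reads, and a region could enter through the libraries of 1 group alone. These 14 calls therefore carry no weight as changes.

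Cluster sequences were slightly richer in T and poorer in GC after tunicamycin in these libraries, short of what the design can call. T made up 32.2, 32.2 and 31.9% of cluster bases in DMSO and 33.0, 32.7 and 32.3% after tunicamycin. GC made up 42.4, 42.3 and 42.6% against 42.0, 41.8 and 42.2%. Neither pair of groups overlaps, and an exact permutation test gave p = 0.1 for each, the smallest that 3 against 3 allows (two-sided), which is 0.65 after adjustment over 13 properties. With each cluster weighted by its reads the GC groups overlap (exact permutation p = 0.2), while those of T do not. CAT was in 73.1% ± 0.148 of DMSO clusters and 73.5% ± 0.917 of tunicamycin clusters (SD, n = 3 each), with overlap. T-to-C events made up 7.83% and 7.73% of T positions read, and 30.7% and 32.9% of named clusters lay within 1000 bases of the gene's 3′ end, both with overlap.

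In libraries of tunicamycin for 4 h from the same series several of these genes had other values, and 4 h was tested against 1 h over 1723 genes with regions in all 9 libraries. CPM in this fit are scaled to its own genes, so that HSPA5 had a mean of 446 CPM and EGR1 of 1255 CPM at 1 h. HSPA5 had 1965, 2739 and 1535 CPM at 4 h and rose by 2.18 on the log2 scale between the times (SE 0.18, adjusted p = 5.51e-09). XBP1 had 546, 596 and 410.0 CPM and rose by 1.43 (SE 0.27, adjusted p = 0.0012). Every library at 4 h lay above every library at 1 h for both genes. EGR1 had 2492, 3318 and 2028 CPM and rose by 0.98 (adjusted p = 0.00445), and ATF3 had 1055, 1334 and 949.7 CPM and rose by 1.20 (adjusted p = 9.93e-04). DUSP5 had 295, 376 and 331 CPM at 4 h and a difference of -0.03 (SE 0.27, adjusted p = 0.98). HMGA2 had 2348, 1916 and 1999 CPM and fell by 1.17 on the log2 scale between 1 h and 4 h (adjusted p = 9.90e-07). In all, 117 of the 1723 genes (6.79%) differed between the times, 78 higher at 4 h (4.53%) and 39 lower (2.26%), and 68 without tunicamycin 1 h replicate 2 or 53 without tunicamycin 4 h replicate 2. Most genes named here were chosen with their values in the same tunicamycin 1 h libraries known, so that their differences from 4 h are in part built into the choice. After arsenite at 250 µM for 2 h, in another library set, EGR1 rose by 4.40 on the log2 scale over PBS for 2 h (adjusted p = 1.32e-11), and 175 of 943 genes (18.6%) differed between the arsenite effect and the effect of tunicamycin at 1 h.

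**Figure D5:**
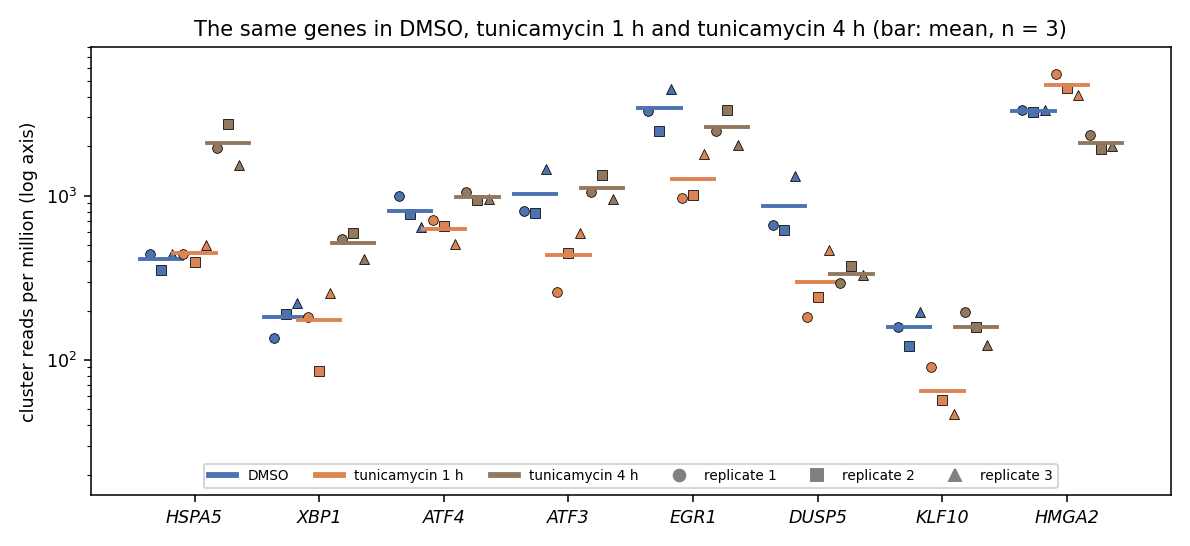
Cluster reads in CPM (log axis) of 8 genes in the 9 libraries of DMSO (blue), tunicamycin 1 h (orange) and tunicamycin 4 h (brown), with a bar at the mean of 3. HSPA5 and XBP1 are higher at 4 h than at 1 h in every library, the DUSP5 libraries of 1 h and 4 h overlap, and HMGA2 is lower at 4 h than at 1 h in every library.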

How the data were processed

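The authors deposited raw counts per gene, 1 column per library, and a cluster list per library. Per the submitters' processing notes reads were handled with bcl2fastq 2.20.0.422, UMI-tools 1.1.1, Trimmomatic 0.30, Bowtie 0.12.7 and featureCounts 2.0.1 on GRCh38. The cluster caller is not given in the sources used here. More than 1 RNase concentration is stated without naming the libraries. Per the file headers, the clusters carry read counts and conversion counts, and the lowest values were 2 reads and 2 conversion locations.

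The members, gene lists and tests were chosen with earlier results of these data known. Clusters on the same strand sharing at least 1 base were joined into regions and named by RefSeq gene spans (GRCh38.p14), which gave 1 gene to 85.9% of clusters. The strand was checked in 4829 genes with a stated strand, at least 50 reads and at least 90% of them on 1 strand. In 95.8% of these genes that strand was the stated one. For 1487 genes without a stated strand, the strand with at least 90% of the reads was taken. Identifiers of the count table could not be paired with symbols (0 of 19962), so at most a pair per direction is printed. Genes were named by a rule: those called, fixed names, and the best-covered members of each list. Outside this rule, genes with the lowest p-values in each direction and some list members were added after their values were seen. Tests used edgeR 4.0.16 in R 4.3.3 (TMM, quasi-likelihood, two-sided), with adjusted p under 0.05, and DESeq2 1.42.0 as an alternative. The identifier fit had 9 libraries. The fixed design had foreseen named genes in that fit, and the fit of their cluster reads in 6 libraries was added later. SE is the log2 fold change divided by the square root of F. In simulated data with 200 genes changed 2-fold, the test recovered 89% of named genes (10 false calls among 1773) and 71% of identifiers (8 false calls among 8343). For regions it recovered 68.5% (5 false calls among 3777). The simulation gave every gene of a fit the same spread, so these shares do not tell how many real 2-fold changes the fits would find. Replicates of a group differed beyond sampling noise in all 6 pairs (largest p 2.1e-34).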

Additional observations from a re-analysis of the deposited data

Results flagged for a closer look

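A test of tunicamycin 4 h against 1 h, in the fit of 9 libraries, found 117 of 1723 genes different, and 21 of the 30 named genes looked at are among them. Most of the 30 were chosen with their values in the same tunicamycin 1 h libraries known, so a difference back towards DMSO is in part built into the choice, and the values are a description. On the log2 scale the cluster reads were higher at 4 h for ATF3 (1.20), KLF10 (1.42), BTG2 (0.41), FAT1 (0.60), DAZAP2 (0.46), CCNI (0.55), EIF3L (1.14), AREG (0.61), PRRC2C (0.76), SCD (0.66), RPL15 (0.71), RPS23 (0.91), HSPA5 (2.18), XBP1 (1.43), ATF4 (0.71), EGR1 (0.98), TRIB3 (2.40) and VEGFA (1.58). They were lower at 4 h for TRIB1, a pseudokinase (-1.12), HMGA2 (-1.17) and KPNA2, an importin (-0.69). All 21 have an adjusted p under 0.05 by edgeR's quasi-likelihood test, from 5.51e-09 for HSPA5 to 0.0453 for BTG2.

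The effect of arsenite (250 µM, 2 h) against PBS (2 h) minus the effect of tunicamycin at 1 h was tested over 943 genes in 12 libraries that share no control, and 175 differed (18.6%). EGR1 differed by 5.76 on the log2 scale (SE 0.34, adjusted p = 2.09e-11): its mean was 2145 CPM in PBS and 45303 CPM with arsenite, against 4713 in DMSO and 1737 with tunicamycin. The difference was also above 0 for DUSP5 (2.87), FAT1 (1.62), BTG2 (1.34), PRRC2C (1.33), TRIB3 (1.29), EIF3L (1.04), ACTB (0.77) and ERRFI1 (0.74), and below 0 for ATF4 (-1.13). Several of these genes were chosen with their low values in the same tunicamycin 1 h libraries known, and the difference subtracts that effect. A difference above 0 is therefore in part built into the choice, and the values are a description. The arsenite libraries form another library set, so the stress and the library set cannot be told apart here.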

How the results depend on the processing

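Only mRNAs with a cluster in every library are tested by name, and shallow libraries set that limit. The named-gene fit used 6 libraries and was added after the files were seen, since the count table carries no symbols. It called 1 gene, lower, and the 9-library fit, a mean count of at least 50, a term for the library set, the S142 libraries alone and regions joined only where clusters shared more bases each called 3, all lower. DESeq2, robust moderation, clusters of at least 10 reads and regions in at least 3 libraries called 0, all with the same direction for EGR1. Leaving out a library gave 0 to 4 (0 to 4 lower). By identifier DESeq2 called 6 (2 higher, 4 lower), the S142 libraries alone 16 (6 higher, 10 lower), and leaving out a library 13 to 41 (5 to 10 higher, 7 to 31 lower). Regions in at least 3 libraries gave 14 region calls (2 higher, 12 lower), in a fit that counted a library without a cluster as 0 reads. Leaving out a library gave 0 to 3 region calls (0 to 3 lower). The 4 h against 1 h count of 117 ran from 53 to 121.

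The labels do not state that replicate numbers pair the samples. For gene counts, same-number correlations of deviations were -0.025, 0.0054 and 0.0075, and different-number ones ran from -0.039 to 0.024. For named genes, same-number correlations were 0.15, 0.027 and 0.20, and different-number ones ran from -0.24 to 0.15. The check does not settle whether the samples are paired. With the replicate block 5 named genes were called, all lower (ATF3, DUSP5, EGR1, FAT1 and TRIB1), and 6 regions, all lower. DUSP5 then had an adjusted p of 1.9e-05 and ATF3 of 2.6e-04, and the EGR1 regions at 2641, 1274 and 1779 bases had 8.3e-05, 0.0017 and 0.024. By identifier the block called 43, and the median of HSF1 heat shock chaperones was 0.10.

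Signs turned for small values. XBP1 had 0.032 with the stricter overlap and -0.71 to 0.26 without a library, ACTB -0.038 with clusters of at least 10 reads and -0.064 to 0.13 without a library, and HSPA5 -0.023 to 0.22 without a library. CAT differed by -4.63 points over equal numbers of clusters and -0.746 weighted by reads. TGTA differed by -5.91, -0.680 (at least 10 reads) and -2.94 points, and TTTT by -6.48 and -2.25. The share of reads in the 100 largest clusters differed by -0.389. Without a library ACA ran from -0.390 to 0.0444, TGTA from -0.383 to 0.554, the mitochondrial share from -0.0206 to 0.427 and the top-100 share from -0.0441 to 2.99 points.

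List medians within S142 were 0.13 for YAP-TEAD and Hippo genes, 0.058 for HSF1 chaperones, 0.19 for Wnt genes, 0.079 for SR factors, 0.51 for lipid synthesis and 0.20 for mitochondrial genes. Without a library they ran from 0.022 to 0.12 (YAP-TEAD), 0.025 to 0.24 (HSF1), -0.0037 to 0.12 (oncogenic targets), 0.028 to 0.18 (Wnt), 0.097 to 0.17 (SR), -0.40 to -0.23 (ribosomal proteins) and 0.00075 to 0.16 (mitochondrial). The cause of these moves was not tested. Cluster shares by transcript part were not run, since no exon annotation was used.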
